A study of Mus musculus with 6 samples.

Results

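The genes described here encode 10 G protein coupled receptors that respond to products of digestion, namely Ffar1, Ffar2, Ffar3, Ffar4, Gpr119, Gpbar1, Casr, Gpr142, Gprc6a and Lpar5. They were chosen by symbol from the 54281 genes of the deposited table by a rule that uses no measured value, although earlier results of these data were known when they were listed. Their transcripts were counted in GLUTag cells, a murine enteroendocrine line that secretes GLP-1 and derives from a colonic tumour of a mouse carrying a viral large T antigen under the glucagon gene promoter. All 6 libraries were of a single untreated condition, wells seeded on Matrigel and kept for 48 h in low glucose DMEM (1 g/L) with GlutaMAX and 10% heat inactivated FBS. On plate 1, the 3 wells were at passage 23, and on plate 2, the 3 wells were at passage 27, so that plate and passage cannot be told apart. The line has one origin and no other cell line or primary tissue was analysed here, and the values are levels in this complete medium. Nothing in the labels says that wells of a plate came from separate cultures, and p-values therefore measure the spread between these libraries, which may be technical.

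Enteroendocrine cells sense the contents of the gut lumen and release peptide hormones in response. The receptors for long-chain fatty acids and for amino acids act mainly through Gq and phospholipase C, which raise cytosolic calcium, whereas the receptors for lipid amides and for bile acids act through Gs and cAMP. The receptors for short-chain fatty acids couple to Gi, and one of them also to Gq. In L-cells of the gut these pathways converge on the release of GLP-1.

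Each library was made with a kit that reads the 3′ end of polyadenylated transcripts, so levels of different genes are set side by side without a correction for length. Whether different genes were recovered equally well was not tested. Levels are given as the share of the library total in CPM (counts per 1000000). The totals lay between 21399987 and 36488198 counts. Where a gene had no count, up to 3 counts remain possible (the one-sided 95% Poisson limit, lower than the upper end of the two-sided intervals given for single libraries), which is 0.0822 CPM in the deepest and 0.14 CPM in the shallowest library and covers counting error only. The columns of plate 2 are numbered 1 to 3 within the plate, whereas the sample titles run from 1 to 6, so a column could not be tied to a title, and the libraries of plate 2 are called by their total (lowest, middle and highest). The plate 2 library with the middle total stood apart from the rest. Among 5031 well covered genes (30 CPM or more on average), 354 lay below 0.5 times the mean of the other libraries of its plate, against at most 3 in any other library, and results that rest on it are given with and without it. In the plate 2 library with the highest total, 49 of these genes lay above 2 times that mean, against at most 4 in any other library, and mitochondrial genes took 7.27% of its counts, against 3.98% to 5.32% elsewhere. Of 11 markers of enteroendocrine cells, 10 had more than 3 counts in every library, among them Gcg, the precursor of GLP-1, at 3416 ± 771 CPM (SD, n = 6) and Cck at 1080 ± 277 CPM, while Pyy had between 2 and 17 counts. Of the markers of other cell types, 2 of 6 for enterocytes, 1 of 5 for goblet and Paneth cells (Tff3), 2 of 5 for tuft cells, 1 of 5 for fibroblasts, 1 of 4 for endothelial cells (Pecam1) and 0 of 5 for immune cells passed the same limit, and Apob, Fabp2, Mmp7, Col3a1 and Tek were at 0 in all 6 libraries. The tuft cell marker Dclk1 (67.23 ± 5.77 CPM), Pecam1 (42.99 ± 33.3 CPM) and Tff3 (37.81 ± 2.42 CPM; SD, n = 6) had higher means than any of the 10 receptor genes. The other markers of these cell types had means of 5.871 CPM or less. In such bulk samples, fewer cells that express a gene and less RNA per cell cannot be told apart.

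Of the 10 receptor genes, 6 had more than 3 counts in every library, beside 28.1% of all genes of the table. In order of mean level these were Ffar4, Ffar1, Gpr119, Gpbar1, Ffar3 and Ffar2. Gprc6a passed the limit in 5 of 6 libraries, and Casr, Gpr142 and Lpar5 were at 0 in all 6. With a minimum of 10 counts in every library 5 genes remained (Ffar2 was lost), and with a minimum of 1 CPM in every library 4 remained. The median of the 10 mean levels was 0.991 CPM, beside 0 CPM over all genes and 0.994 CPM over the 27044 genes counted at least once.

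The 300 bases around the RefSeq start of transcription (250 before it and 50 from it on, GRCm38.p6) are shown for the 3 receptor genes that carried most of the counts. The stretch of Ffar4 is chr19:38096829-38097128 on the plus strand, that of Ffar1 is chr7:30861421-30861720 on the minus strand, and that of Gpr119 is chrX:48674429-48674728 on the minus strand. All are written 5′ to 3′, with the capitals marking CAGATG, an E-box that NEUROD1 is known to bind.
Ffar4: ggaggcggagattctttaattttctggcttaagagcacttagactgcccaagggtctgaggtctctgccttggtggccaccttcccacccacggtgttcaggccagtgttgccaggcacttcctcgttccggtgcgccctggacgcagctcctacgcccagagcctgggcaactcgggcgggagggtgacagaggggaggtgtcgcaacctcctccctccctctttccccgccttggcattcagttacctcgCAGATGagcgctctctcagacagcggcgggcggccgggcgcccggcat
Ffar1: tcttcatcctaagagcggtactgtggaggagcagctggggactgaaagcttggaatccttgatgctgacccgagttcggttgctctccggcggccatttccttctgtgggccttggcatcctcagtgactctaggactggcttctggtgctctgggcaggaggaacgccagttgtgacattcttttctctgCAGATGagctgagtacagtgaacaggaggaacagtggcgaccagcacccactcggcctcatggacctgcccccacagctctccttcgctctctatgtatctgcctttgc
Gpr119: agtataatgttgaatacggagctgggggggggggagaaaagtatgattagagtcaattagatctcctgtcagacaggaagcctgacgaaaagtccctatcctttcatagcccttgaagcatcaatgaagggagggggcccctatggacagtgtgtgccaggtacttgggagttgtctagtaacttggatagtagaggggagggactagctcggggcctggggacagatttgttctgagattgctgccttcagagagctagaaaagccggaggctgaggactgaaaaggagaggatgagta

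GC content was 63.7% in the stretch of Ffar4, 56.3% in that of Ffar1 and 50.3% in that of Gpr119, beside a median of 52.7% over 32851 such windows of 27025 genes. The number of CpG dinucleotides was 19, 9 and 4 in the same order, beside a median of 7. CAGATG, searched on both strands, began at base 253 of the Ffar4 window and base 192 of the Ffar1 window and was not in that of Gpr119. The GENCODE annotation starts Ffar4 at chr19:38097071 and Ffar1 at chr7:30861564, upstream of the RefSeq starts. Both matches thus lie within the annotated genes and not before them. Over all windows 17.2% held CAGATG. Counted by gene, 19.2% of all genes and 6 of the 10 receptor genes held it in at least 1 of their windows, among the latter Gpr142 and Lpar5, which had no count. TATAAA, which does not overlap it, was in 13.6% of all windows and in none of the windows of the receptor genes. No binding or methylation was measured in these cells, and a match of letters is no evidence of a site.

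The long-chain fatty acid receptors were the most abundant of the group. Ffar1 and Ffar4 both bind medium- and long-chain fatty acids, and Ffar1 is also the target of agonists developed to raise insulin secretion. Ffar1 (ENSMUSG00000044453, GENCODE on GRCm38, chr7:30857390-30861564, minus strand, 1 exon) had 28.2, 29.2 and 28.4 CPM in replicates 1, 2 and 3 of plate 1. On plate 2 it had 25.5, 28.9 and 26.1 CPM in the libraries with the lowest, middle and highest total. The mean was 27.72 ± 1.53 CPM (SD, n = 6), from 607 to 954 counts per library. The CPM values of the plates overlapped, and the coefficient of variation, 5.51%, was the lowest of the detected receptor genes, where counting alone gives 3.71%. This small spread held for scaling by the library total only. With TMM the level of Ffar1 was 27.94 ± 4.09 CPM, and with DESeq2 size factors it was 27.97 ± 4.32 CPM (SD, n = 6). Among the genes with a count, Ffar1 lay at percentile 80.4.

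Ffar4 (ENSMUSG00000054200, chr19:38097071-38114263, plus strand, 3 exons) had 35.5, 27.2 and 31 CPM on plate 1. Its values on plate 2 were 36.4, 15 and 40.5 CPM, so that the plate held both the highest and the lowest of the 6. The mean was 30.93 ± 9.04 CPM (SD, n = 6), percentile 81.7 among the genes with a count, and the coefficient of variation was 29.2% against 3.49% from counting. The low value belonged to the library that stood apart, and the remaining 5 libraries gave 34.11 ± 5.12 CPM (SD). Within a library, Ffar4 exceeded Ffar1 by 0.09 ± 0.55 on the log2(CPM + 1) scale (SD, n = 6), and it was the higher gene in 4 of 6 libraries (exact two-sided sign-flip permutation test, p = 0.6875, adjusted p = 0.6875 over the 15 pairs compared). The difference ran from -0.90 in the library that stood apart to 0.61 and had a mean of 0.29 without that library, so the order of these neighbours was not resolved, nor were their levels shown to be equal.

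**Figure D1:**
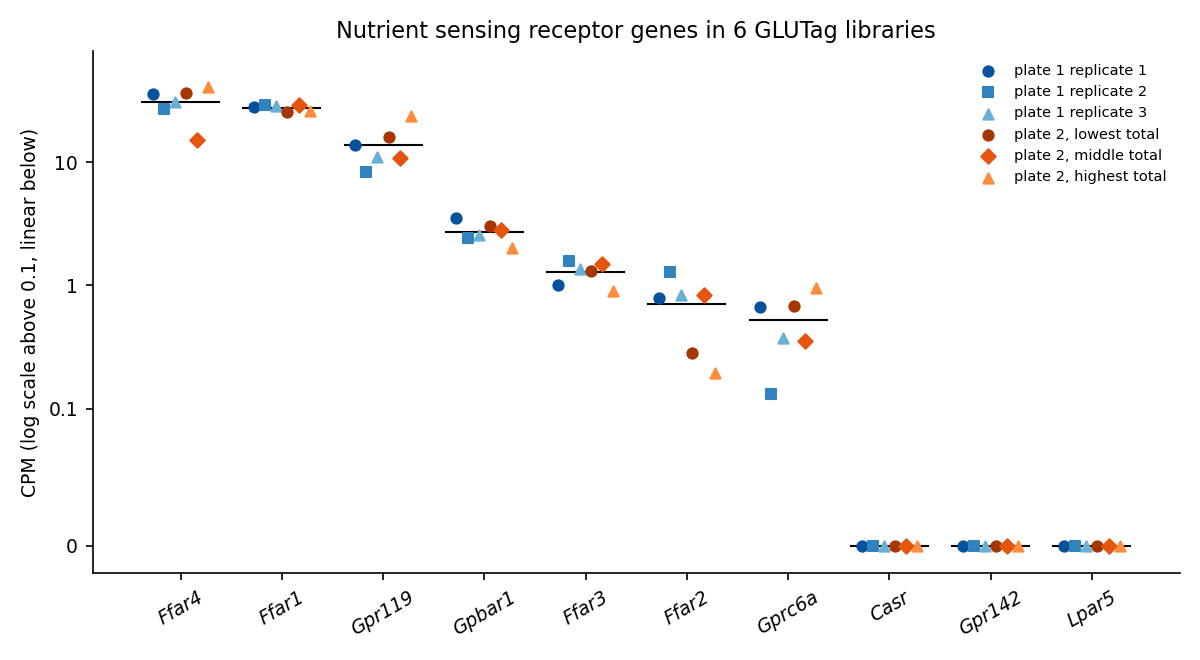
Levels of the 10 receptor genes in CPM (vertical axis) in each of the 6 libraries, on a scale that is logarithmic above 0.1 and linear below, with points for single libraries and a line for the mean. Ffar4 and Ffar1 lay near 30.93 and 27.72 CPM, Gpr119 at 13.9 CPM, the other detected genes at 2.73 CPM or less, and Casr, Gpr142 and Lpar5 at 0.

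The short-chain fatty acid receptors were present at low level. Ffar2 and Ffar3 respond to acetate, propionate and butyrate made by the colonic microbiota. The annotation places Ffar1, Ffar3 and Ffar2 in a row on the minus strand of chromosome 7, with Ffar3 (ENSMUSG00000019429, chr7:30854330-30856178) 1212 bp downstream of Ffar1 and Ffar2 (ENSMUSG00000051314, chr7:30818348-30823775) 30555 bp beyond Ffar3. None of them overlaps another annotated gene on either strand. Ffar3 had 1, 1.59 and 1.36 CPM on plate 1 and 1.32, 1.49 and 0.904 CPM on plate 2, with 24 to 46 counts per library. Its mean was 1.276 ± 0.271 CPM (SD, n = 6), and its coefficient of variation of 21.2% was close to the 17.4% that counting gives. The plates overlapped, and no library lay far from the others.

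Ffar2 had 0.792, 1.28 and 0.841 CPM on plate 1, from 19, 29 and 18 counts. On plate 2 it had 0.285, 0.841 and 0.195 CPM, from 8, 26 and 7.1 counts, the last being an estimate that is not whole. The mean was 0.7058 ± 0.403 CPM (SD, n = 6). The libraries of plate 2 with the lowest and highest total were the lowest of the 6, and the library that stood apart lay within the range of plate 1. Exact Poisson 95% intervals, which cover counting error only, ran from 0.123 to 0.561 CPM and from 0.0771 to 0.395 CPM in those 2 libraries, against 0.858 to 1.84 CPM in replicate 2 of plate 1. Replicates 1 and 3 of plate 1 had 0.477 to 1.24 and 0.499 to 1.33 CPM, which overlap the interval of the plate 2 library with the lowest total. The coefficient of variation was 57.2% against 24.1% from counting. Ffar3 was higher than Ffar2 in 6 of 6 libraries, by 0.44 ± 0.27 on the log2(CPM + 1) scale (SD; lowest 0.16, highest 0.85; exact sign-flip permutation p = 0.03125, adjusted p = 0.03348). Although they lie on the same stretch of chromosome 7, Ffar1 was the higher by 3.66 ± 0.15 over Ffar3 and by 4.11 ± 0.28 over Ffar2 on the same scale, in 6 of 6 libraries each with the same exact permutation p. The summed level was 58.6 ± 8.04 CPM for the long-chain and 1.98 ± 0.619 CPM for the short-chain fatty acid receptors (SD, n = 6).

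Gpr119 followed in level. It binds oleoylethanolamide and monoacylglycerols and raises cAMP through Gs. Gpr119 (ENSMUSG00000051209, chrX:48667979-48674478, minus strand) had 13.9, 8.35 and 11 CPM on plate 1 and 15.9, 10.8 and 23.5 CPM on plate 2. The mean was 13.9 ± 5.37 CPM (SD, n = 6), from 189 to 856 counts, and the plate means were 11.07 and 16.73 CPM. The plates overlapped, with the plate 2 library of middle total below replicates 1 and 3 of plate 1. The coefficient of variation of 38.6% exceeded the 5.09% of counting. Ffar1 exceeded Gpr119 by 1.02 ± 0.55 on the log2(CPM + 1) scale and Ffar4 exceeded it by 1.11 ± 0.43, each in 6 of 6 libraries (exact sign-flip permutation p = 0.03125, adjusted p = 0.03348). The difference between Ffar1 and Gpr119 varied from 0.15 to 1.69 between libraries, with means of 1.32 on plate 1 and 0.71 on plate 2.

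Gpbar1, the cell surface receptor for bile acids, also signals through Gs. Gpbar1 (ENSMUSG00000064272, chr1:74278550-74279624, plus strand, 1 exon) had 3.5, 2.43 and 2.57 CPM on plate 1 and 3.06, 2.81 and 2 CPM on plate 2. Its mean of 2.73 ± 0.521 CPM (SD, n = 6) rested on 55 to 87 counts per library, and its coefficient of variation was 19.1% against 11.9% from counting. The values of the plates overlapped. Gpr119 exceeded Gpbar1 by 1.94 ± 0.57 and Gpbar1 exceeded Ffar3 by 0.71 ± 0.26 on the log2(CPM + 1) scale, each in 6 of 6 libraries (exact sign-flip permutation p = 0.03125, adjusted p = 0.03348).

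Of the amino acid receptors, only Gprc6a had counts, at a low level. Casr is the calcium-sensing receptor, whose response to calcium is enhanced by aromatic amino acids, Gprc6a is a related receptor for basic amino acids, and Gpr142 responds to tryptophan. Gprc6a (ENSMUSG00000019905, chr10:51614823-51631461, minus strand) had 16, 3 and 8 counts on plate 1, or 0.667, 0.133 and 0.374 CPM. On plate 2 it had 19, 11 and 35 counts, or 0.677, 0.356 and 0.959 CPM. The mean was 0.5275 ± 0.296 CPM (SD, n = 6), with an exact Poisson 95% interval of 0.0273 to 0.387 CPM in replicate 2 of plate 1 and of 0.668 to 1.33 CPM in the plate 2 library with the highest total. The plates overlapped, and replicate 2 of plate 1 was the lowest.

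Casr (ENSMUSG00000051980, chr16:36493696-36562141, minus strand) and Gpr142 (ENSMUSG00000034677, chr11:114798924-114806745, plus strand) had a count of 0 in each of the 6 libraries. The same was found for Lpar5 (ENSMUSG00000067714, chr6:125067920-125082472, plus strand), a receptor for lysophosphatidic acid that has also been described as a sensor of peptone. For each of the 3 genes this allows up to 0.14 CPM in the shallowest library and up to 0.0822 CPM in the deepest, so they were not detectable at this depth. With the 6 libraries pooled, the same limit is 0.0183 CPM, which covers counting error only. A kit that reads the 3′ end counts a gene through its annotated transcript end, and whether these cells use other ends was not tested.

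The sum of the 10 genes was 83.6, 70.2 and 75.5 CPM on plate 1 and 83.1, 60.2 and 94.1 CPM on plate 2 (mean 77.8 ± 11.8 CPM, SD, n = 6). Ffar4 made up 39% ± 7.12 of it, Ffar1 36.6% ± 7.43 and Gpr119 17.5% ± 4.45 (SD, n = 6), and Gpbar1 accounted for 3.59% ± 0.864. Together Ffar1, Ffar4 and Gpr119 held between 90.9% and 95.7% of the receptor counts of a library. The library that stood apart had the smallest sum, with a share of 48% for Ffar1 and 24.9% for Ffar4. The order of the 6 detected genes held in 14 of the 15 pairs, each with the same gene higher in 6 of 6 libraries and an exact permutation p of 0.03125, which is the smallest that 6 libraries allow (adjusted p = 0.03348). The exception was the pair of Ffar4 and Ffar1.

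**Figure D2:**
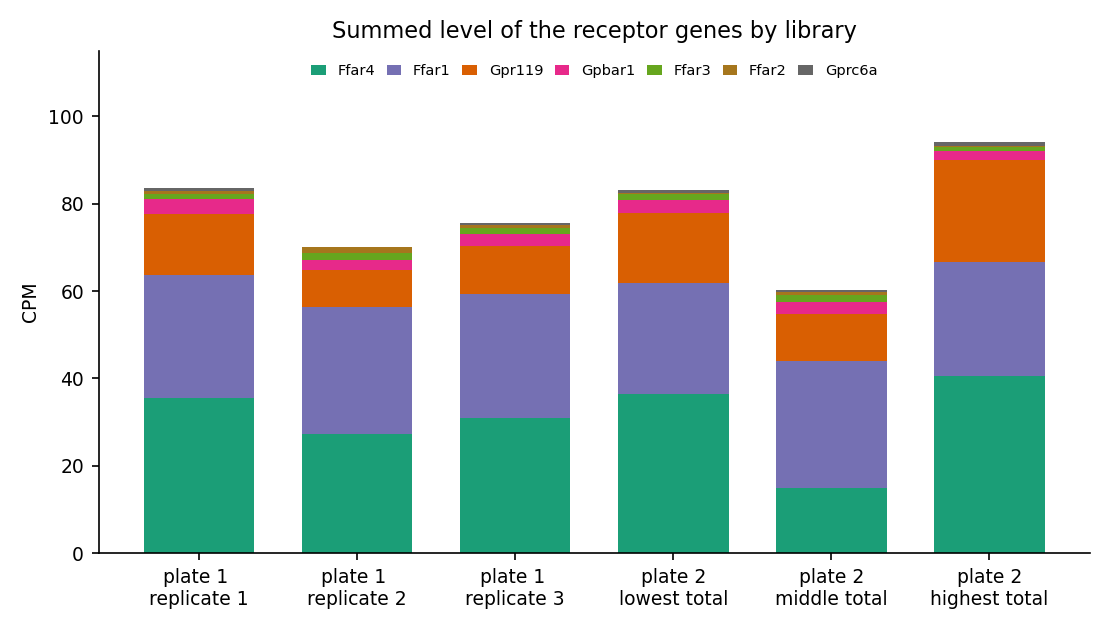
Levels of the receptor genes in CPM (vertical axis), stacked for each of the 6 libraries (horizontal axis). Ffar4, Ffar1 and Gpr119 together made up between 90.9% and 95.7% of the sum of the 10 genes in each library. The lowest sum, 60.2 CPM, was that of the plate 2 library of middle total, with a share of 24.9% for Ffar4.

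The plates were compared to ask whether receptor levels changed between passage 23 and passage 27. None of the 7 receptor genes that passed the filter on low counts was called (edgeR quasi-likelihood test with Benjamini-Hochberg adjustment over 15669 genes, adjusted p under 0.05), beside 29 genes or 0.185% of all genes tested. DESeq2 and limma-voom called 0 of the 7 as well, beside 3.73% and 0.0638% of all genes, and DESeq2 gave no adjusted p for Ffar2 and Gprc6a. At an unadjusted p under 0.05 edgeR had 2 of the 7, Ffar1 and Ffar2, beside 16.1% of all genes.

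The log2 fold change of plate 2 over plate 1 was -0.36 for Ffar1 (SE 0.13, edgeR adjusted p = 0.221) and -1.41 for Ffar2 (SE 0.61, adjusted p = 0.299). For Gpr119, it was 0.33 (SE 0.29, adjusted p = 0.634), and for Gprc6a 0.49 (SE 0.64, adjusted p = 0.763). Ffar3, Ffar4 and Gpbar1 had values of -0.36, -0.30 and -0.38 with SE of 0.36, 0.34 and 0.27. The estimates are from counts scaled by TMM, with a median log2 fold change of 0.03 over all genes tested. With the total count as the only scaling that median was 0.30, and Ffar1, Ffar2, Ffar4 and Gpr119 had -0.09, -1.14, -0.03 and 0.60. With the library total as the only scaling, the CPM values of the plates overlapped for each of the 7 genes. Divided by the TMM factors as well, those of Ffar1 and Ffar2 did not overlap. The share of all genes that overlap in either way was not determined, so this describes the values only. Of the other cell types, the summed endothelial markers lay furthest apart by plate in CPM. They had 39.6 to 99.9 CPM on plate 1 and 3.6 to 32.7 CPM on plate 2, nearly all of it Pecam1 with Tek at 0. Pecam1 was the only endothelial marker tested, and edgeR (adjusted p = 0.349), DESeq2 and limma-voom did not call it. Nor did edgeR call it without the library that stood apart. The part of Pecam1 in the receptor values was not tested.

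Without the library that stood apart, Ffar1 and Ffar2 were called, with log2 fold changes of -0.46 (SE 0.11, edgeR adjusted p = 0.0176) and -2.33 (SE 0.66, edgeR adjusted p = 0.033). These are 2 of 7 genes, beside 1911 of 15894 genes or 12.0% of all genes tested in that fit. The same fit called 3 of 10 enteroendocrine markers tested, Cck, Chga and Pcsk1, and 1 goblet cell marker, Tff3, and their part in the receptor values was not tested. Omission of any other library called none of the receptor genes. Leaving out 1 library moved the estimate to between -0.46 and -0.31 for Ffar1 and between -2.33 and -1.03 for Ffar2, so the sign did not turn. For the other 5 genes the ranges were -0.56 to -0.17 (Ffar3), -0.56 to -0.01 (Ffar4), 0.00 to 0.53 (Gpr119), -0.49 to -0.20 (Gpbar1) and 0.09 to 1.13 (Gprc6a). The value of 0.00 for Gpr119 was that without the plate 2 library with the highest total.

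**Figure D3:**
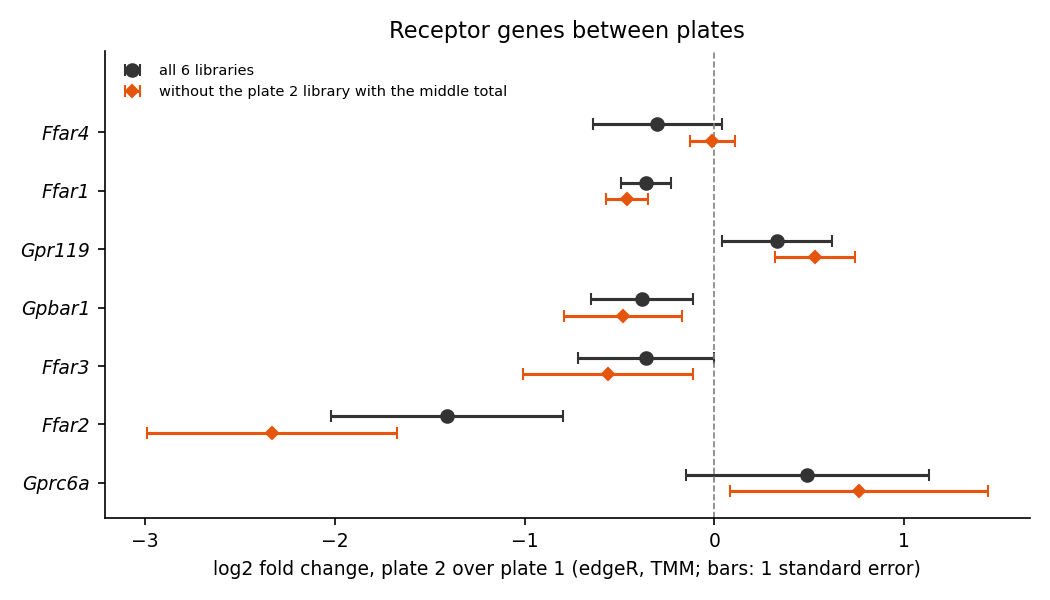
Log2 fold change of plate 2 over plate 1 (horizontal axis) for the 7 receptor genes tested, with bars for the SE, for all 6 libraries and after omission of the plate 2 library of middle total. Ffar1 and Ffar2 were called only without that library, at -0.46 and -2.33.

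The library that stood apart differed from the mean of the other plate 2 libraries by a log2 ratio of -1.36 for Ffar4, -0.86 for Gpr119 and -1.2 for Gprc6a. The ratio was 0.162 for Ffar1, 0.153 for Gpbar1, 0.422 for Ffar3 and 1.81 for Ffar2. In the last 200 nt of the annotated transcript, GC content was 35% for Ffar4 and 27.5% for Gpr119, the lowest of the 10 genes, while it was 41.5% for Ffar2, 47% for Gprc6a, 47.5% for Ffar3, 48% for Ffar1 and 59% for Gpbar1. Its part in the difference between these libraries was not tested.

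Among the partners that the receptors signal through, the G protein alpha subunits reached the highest levels. Of 13 genes for G protein alpha subunits, 11 had more than 3 counts in every library. Gnal passed this limit only narrowly, with 3.01 expected counts in its lowest library. The highest was Gnas, the gene of the alpha subunit of Gs to which Gpr119 and Gpbar1 couple, at 1390 ± 235 CPM (SD, n = 6). This value sums all transcripts of the gene, and the part that encodes the alpha subunit was not determined. Gnai2, an alpha subunit of Gi, had 632.3 ± 69.6 CPM. Gna11, of the Gq family to which Ffar1 and Ffar4 couple, had 175.2 ± 42.6 CPM. The members not detected in every library were Gna14, with at most 1 count, and Gna15, with 0 to 16 counts.

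All 4 phospholipase C beta genes were detected, with Plcb1 at 19.65 ± 2.53, Plcb4 at 11.46 ± 1.82 and Plcb3 at 4.419 ± 0.388 CPM (SD, n = 6). Plcb1 lay between Gpr119 and Ffar1 in mean level. Of the arrestins and receptor kinases, which end the signal of activated receptors, 7 of 7 were detected, and Arrb2 (89.64 ± 19.1 CPM), Grk2 (48.65 ± 7.91 CPM) and Grk6 (31.98 ± 6.59 CPM) were the highest.

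Between the plates, edgeR called none of the 10 alpha subunit genes tested, none of the 4 phospholipases and none of the 7 arrestins and kinases, and at an unadjusted p under 0.05 it had 3, 0 and 0 of them, beside 16.1% of all genes. DESeq2 called 2 alpha subunit genes, Gna11 and Gna12, and none of the others, beside 3.73% of all genes, and limma-voom called 0 in each list, beside 0.0638%. The median log2 fold change was -0.19, 0.02 and 0.12 in these lists, beside 0.03 over all genes tested. Gna11 came nearest to the threshold, with 210 CPM on plate 1 and 140 CPM on plate 2, a log2 fold change of -0.85 (SE 0.14, edgeR adjusted p = 0.0563). Without the library that stood apart, edgeR called 3 of the 10, Gna11, Gna12 and Gnai3, and none of the phospholipases, arrestins and kinases, beside 12.0% of all genes.

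**Figure D4:**
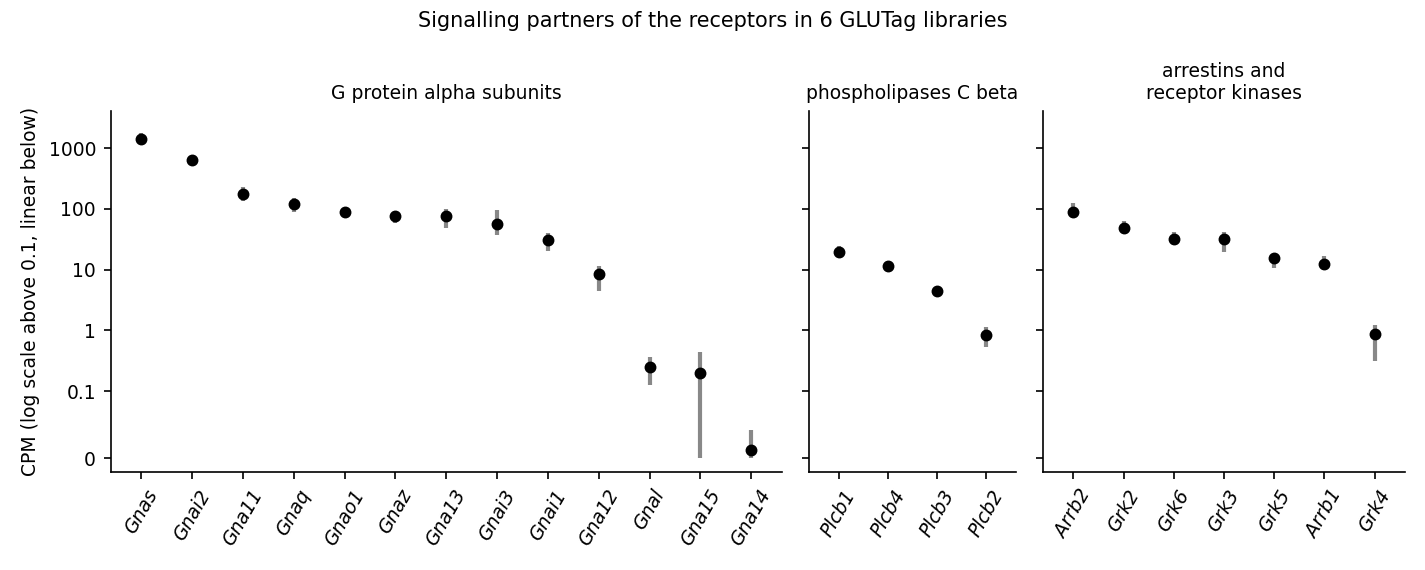
Levels in CPM (vertical axis, logarithmic above 0.1 and linear below) of the genes for G protein alpha subunits, phospholipases C beta, and arrestins and receptor kinases, with points for the mean of 6 libraries and bars from the lowest to the highest library. Gnas (1390 CPM) and Gnai2 (632.3 CPM) lay highest, and Gna14 and Gna15 were not detected in every library.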

How the data were processed

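Polyadenylated RNA of 6 GLUTag wells was sequenced from the 3′ end. Per the labels and methods, the authors trimmed reads with Trim Galore 0.6.4, assigned them with Salmon 1.5.1 to GENCODE M23 transcripts with GRCm38 decoys, with no correction for length, and added up the transcripts of a gene. What they deposited are expected counts (estimates, not normalized), and 2 of the 60 values of the receptor genes were not exactly whole. The strand setting is not given in the sources used here. Every column of values was used.

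The receptor genes and gene lists were chosen with earlier results of these data known. Symbols and positions are from GENCODE M21 (GRCm38), which holds 54107 of the 54281 identifiers. All 10 receptor genes had a promoter window in RefSeq (GRCm38.p6). Overlaps with annotated genes were searched on both strands, and the one found was Gm25902, which lies on the same strand within Casr and had 0 counts.

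CPM were computed from unrounded counts and the library total, which limits precision at the depths given above (21399987 to 36488198 counts). Pairs of genes were compared within libraries as log2(CPM + 1), by an exact two-sided sign-flip test with adjustment over 15 pairs. Plates were compared on rounded counts with edgeR 4.0.16 (filterByExpr, TMM, robust quasi-likelihood test), with DESeq2 1.42.0 and limma-voom 3.58.1 (R 4.3.3) as alternatives besides other scalings, filters, pseudocounts and the omission of each library. The SE given with edgeR estimates was derived as the absolute log2 fold change divided by the square root of the F statistic. TMM factors were 0.887 to 0.933 on plate 1 and 1.08 to 1.11 on plate 2. Levels used Python 3.11.15, numpy 2.4.6 and scipy 1.17.1. The fits were tested on simulated data. No pair of libraries was a duplicate deposit within counting error (the lowest chi-square per gene was 10.2), a check that covers counting error only. Genes named are the 10 receptor genes and, of each list of signalling partners and of other metabolite and lipid receptors, the 3 highest by mean CPM and any called between plates. This rule does not extend to Gna12, Gna14, Gna15, Gnai3, Gnal, the 8 other metabolite and lipid receptors at 0 and the cell type markers. These were named after their values were seen.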

Additional observations from a re-analysis of the deposited data

How the results depend on the processing

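The columns of each plate carry the numbers 1 to 3, and nothing says that a number pairs wells. A replicate block on these numbers, added after the data were seen, gave 5 genes called between plates and 0 receptor genes (edgeR, 2 at an unadjusted p under 0.05). Deviations of same-numbered libraries from their plate means correlated at 0.02, 0.02 and 0.08 across genes, and not every library correlated best with its own number. Mean levels of the 7 receptor genes with a count moved by less than 1 SD under TMM, DESeq2 size factors and a total without mitochondrial genes. Omission of 1 of 6 libraries cannot move a mean by 1 SD, so only values are given. They ran from 29.02 to 34.11 CPM for Ffar4, from 11.99 to 15.01 CPM for Gpr119 and from 0.5907 to 0.808 CPM for Ffar2. Casr, Gpr142 and Lpar5 stayed at 0. Pseudocounts and TMM cannot change which of 2 genes is higher in a library and so do not test the order, but they set its size, and Ffar3 over Ffar2 went from 0.14 with 5 CPM to 0.94 with 0.1 CPM. With 5 libraries the exact test cannot reach 0.05, so omissions give values only, and Ffar4 over Ffar1 then ran from -0.01 to 0.29. Between 6 and 7 receptor genes were detected on the omission of a library (7 without replicate 2 of plate 1, with Gprc6a).

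The number of all genes called between plates depended on the processing. Beside 29 with edgeR, it was 584 with DESeq2, 10 with limma-voom, 1461 without scaling beyond the total count and 545 without a filter on low counts. By scaling, the split went from 2 higher and 27 lower on plate 2 with TMM to 1390 higher and 71 lower with the total alone. Over the omissions of 1 library it ran from 0 to 1911, with 0 (edgeR; 1611 and 2121 at an unadjusted p under 0.05) without replicate 1 of plate 1 and without the plate 2 library of lowest total, 2 and 6 without replicates 2 and 3 of plate 1, 9 without the plate 2 library of highest total, and 1911 without that of middle total. The number of receptor genes called ran from 0 to 2 over the omissions and was 0 under every other alternative. Ffar1 (-0.46 to -0.31) and Ffar2 (-2.33 to -1.03) passed the threshold only without the plate 2 library of middle total. The cause was not tested. No plate difference of a receptor gene changed sign.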

Other observations

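Of 26 genes for other receptors of metabolites and lipids, 9 had more than 3 counts in every library and 8 were at 0 in all 6 (Gpr84, Hcar1, Sucnr1, Gpr18, Lpar3, Lpar4, Lpar6 and S1pr4). The median of the mean levels was 0.0372 CPM. Lpar1, a receptor for lysophosphatidic acid, was the highest, at 60.77 ± 10.2 CPM (SD, n = 6), and its lowest library (49.9 CPM) lay above the highest library of Ffar4 (40.5 CPM). Lpar2, a second receptor of that ligand, had 3.053 ± 0.785 CPM, whereas Lpar5 was at 0 in all 6 libraries. Cnr1, the cannabinoid receptor known from neurons, had 5.652 ± 1.88 CPM.

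Between the plates, edgeR called none of the 9 genes tested in this list, with 1 at an unadjusted p under 0.05, beside 0.185% and 16.1% of all genes. DESeq2 and limma-voom called 0, beside 3.73% and 0.0638% of all genes. The log2 fold change of plate 2 over plate 1 was 0.11 for Lpar1 (edgeR adjusted p = 0.734), -0.24 for Cnr1 (edgeR adjusted p = 0.776) and 0.16 for Lpar2 (edgeR adjusted p = 0.822).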
